A study of Mus musculus with 2 samples.

Results

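The tumour necrosis factor (TNF) superfamily of ligands and the matching superfamily of receptors were described in splenic CD8+CD122+ and CD8+CD122- T cells. Members were taken by gene name: every non-control probe whose name on either array begins with Tnfsf or Tnfrsf and a digit, together with Tnf, Lta, Ltb, Ltbr, Fas, Fasl, Cd27, Cd40, Cd40lg and Cd70. The rule found 61 of the 41172 probes, and 57 of them stood for 42 family genes (17 ligands and 25 receptors). Of these, 39 genes (15 ligands and 24 receptors) were bright enough to be tested among 22122 genes in all, each by its brightest probe.

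TNF family ligands are mostly made as trimeric proteins of the cell surface and are often shed from it. Their receptors fall into those with an intracellular death domain, such as Fas, which can engage FADD and caspase-8 and kill the cell, and those that bind TRAF adaptors and switch on NF-kappa-B. In CD8 T cells, Fas ligand and TNF are effector molecules against target cells, while receptors such as CD27, OX40 and GITR act as costimulators that sustain the response and its survival.

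Both populations came from spleens of C57BL/6 mice by cell sorting, and neither is labelled with a treatment, a mutation or an age. CD122 is a receptor chain through which T cells sense interleukin 2 and interleukin 15, and the series calls the CD8+CD122+ cells regulatory. Amplified messenger RNA of the populations was hybridised together to 2-colour Agilent arrays, with CD8+CD122+ RNA in Cy5 on array 1 and in Cy3 on array 2, a second trial. Nothing in the labels says whether that trial used other mice, so limma's p-values measure only the spread between 2 arrays, which may be technical.

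All ratios below are CD8+CD122+ over CD8+CD122- on the log2 scale, opposite in direction to the series' own value table. Il2rb, the gene of CD122, had ratios of 2.60 on array 1 and 2.34 on array 2 (5.56-fold higher on the mean), which follows the labels on both. Of the spots that are not controls, 69.5% to 83.4% were well above background in each population and array. Across the 22122 genes, which are not independent replicates, the ratios of array 1 and array 2 correlated at a Pearson r of 0.396 and a Spearman rho of 0.103. The ratios contain an added constant of 50 intensity units per channel, so the folds understate the change of dim genes.

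The promoters of 4 ligand genes are printed because the results turn on these genes: Fasl and Tnfsf14 had the highest ratios of the family, and the neighbours Tnf and Ltb had ratios of opposite sign. Each is the 250 bases before the RefSeq start of transcription in GRCm38.p6, from 5′ to 3′ on the strand of the gene: chr1:161788496-161788745 (minus strand) for Fasl, chr17:57194182-57194431 (minus) for Tnfsf14, chr17:35202008-35202257 (minus) for Tnf and chr17:35194257-35194506 (plus) for Ltb. Capitals mark matches, on either strand, to the NFAT core GGAAAA, the AP-1 motif TGANTCA, the T-box motif GGTGTGA or the NF-kappa-B motif, GGGA and TTCC with any 2 bases between them.
Fasl: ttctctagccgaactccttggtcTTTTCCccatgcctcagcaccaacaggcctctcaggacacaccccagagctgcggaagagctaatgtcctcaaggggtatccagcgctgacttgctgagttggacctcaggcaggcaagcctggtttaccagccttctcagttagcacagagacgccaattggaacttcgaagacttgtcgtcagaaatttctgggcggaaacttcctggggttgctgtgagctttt
Tnfsf14: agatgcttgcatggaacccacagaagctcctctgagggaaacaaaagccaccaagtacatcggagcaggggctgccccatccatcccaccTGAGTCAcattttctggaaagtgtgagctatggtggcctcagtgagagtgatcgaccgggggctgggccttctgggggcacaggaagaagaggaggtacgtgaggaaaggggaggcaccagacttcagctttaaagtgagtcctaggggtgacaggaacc
Tnf: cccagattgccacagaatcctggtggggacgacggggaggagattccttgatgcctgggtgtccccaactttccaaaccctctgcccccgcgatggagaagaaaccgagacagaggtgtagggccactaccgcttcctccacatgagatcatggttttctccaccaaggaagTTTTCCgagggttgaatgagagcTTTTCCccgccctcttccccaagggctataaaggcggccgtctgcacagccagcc
Ltb: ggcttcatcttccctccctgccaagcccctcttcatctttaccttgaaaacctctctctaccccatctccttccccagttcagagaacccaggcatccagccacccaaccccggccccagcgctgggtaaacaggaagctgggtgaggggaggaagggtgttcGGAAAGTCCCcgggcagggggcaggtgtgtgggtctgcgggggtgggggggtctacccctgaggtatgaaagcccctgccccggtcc

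Fasl held 1 match to the NFAT core, which begins 227 bases before the start, and Tnf held 2, at 78 and 55 bases. Tnfsf14 held 1 AP-1 match at 160 bases, and Ltb 1 NF-kappa-B match at 87 bases. No match to the T-box motif was found in these windows, and no matches overlapped. Over 32851 promoter windows of the same length, the share with a match was 20.4% for NFAT, 6.75% for AP-1, 3.33% for the T-box motif and 1.21% for NF-kappa-B. The table held 36 windows for 32 of the 42 family genes, of which 11 (30.6%) matched NFAT, 6 (16.7%) AP-1, 0 the T-box motif and 1 (2.78%) NF-kappa-B. A match describes the letters only.

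Most of the family differed little between the populations, and Fasl was the exception by size. Of the family it was the 1 gene whose ratio reached 2-fold on each array in favour of CD8+CD122+ cells, where 0.298% of all genes were, and 0 family genes were 2-fold lower, where 0.104% of all genes were. At 1.5-fold, Fasl and Tnfsf14 were higher (0.723% of all genes) and 0 were lower (0.371%). The mean ratio of 27 of 39 genes (69.2%) lay within 0.25 of 0, against 87.7% of all genes. The central 95% of all genes ran from -0.42 to 0.41. Fasl, Tnfsf14, Tnfrsf1b, Tnf and Tnfrsf12a lay above that range, Ltb and Fas below it, and the other 32 inside it.

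The signs were balanced. On both arrays 12 genes were positive (30.8%, against 29.1% of all genes) and 12 were negative (30.8%, against 24.1%). Another 15 had opposite signs. With median centring in place of loess 9 were positive and 7 negative, and the share of all genes was not computed there. The family median was 0.02, beside 0.01 over all genes. limma called 0 family genes and 0% of all genes at an adjusted p under 0.05, and the lowest adjusted p of the family was 0.576. At an unadjusted p under 0.05 limma found 7 family genes (17.9%), against 6.36% of all genes. Of these, 3 were higher (Fasl, Tnf and Tnfsf14; 7.69%, against 2.84% of all genes) and 4 lower (Fas, Ltb, Tnfrsf13b and Tnfrsf14; 10.3%, against 3.52%). No ratio below therefore passed the test, and each is given as a measured value.

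**Figure D1:**
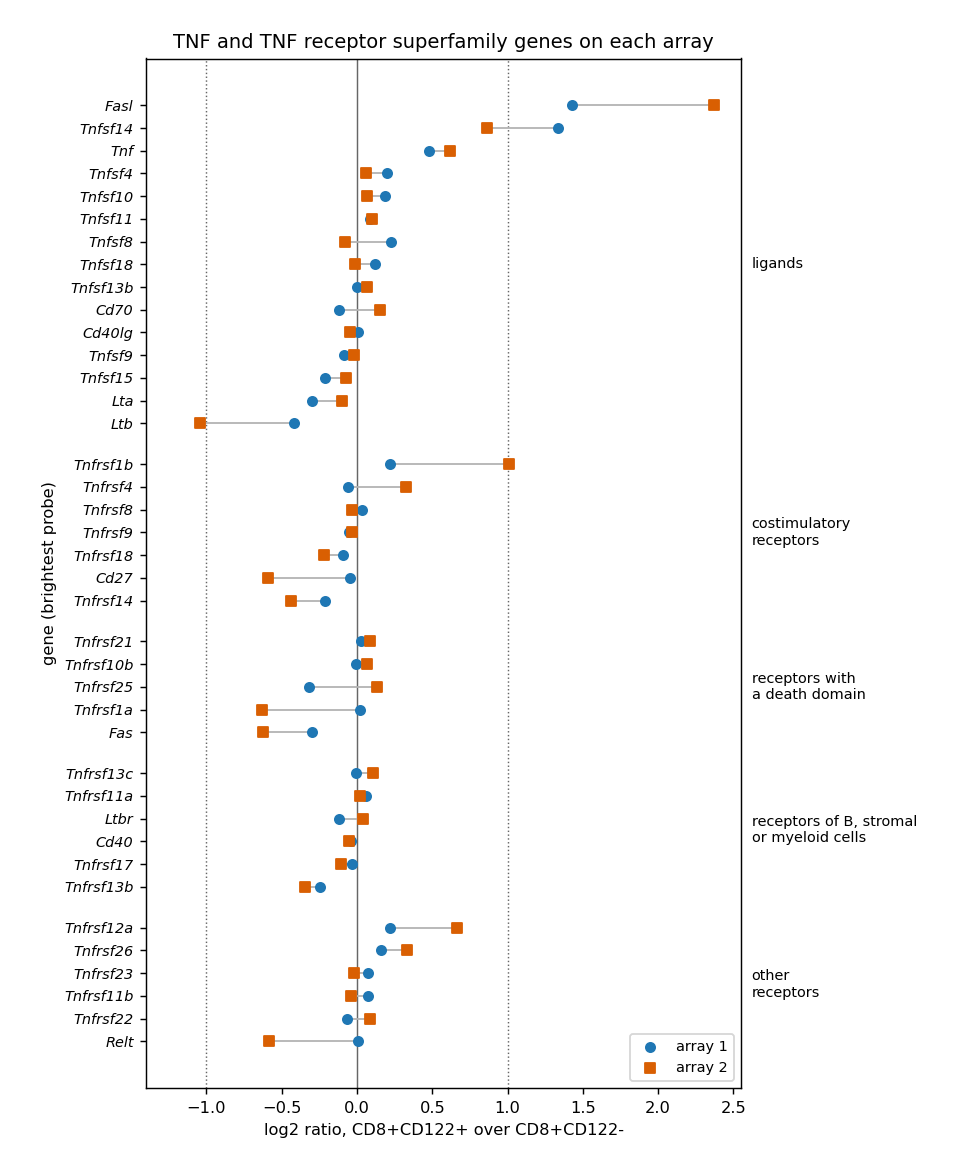
Log2 ratio of CD8+CD122+ over CD8+CD122- (horizontal axis) for the brightest probe of each of the 39 tested family genes, grouped by role, with array 1 as circles and array 2 as squares; dotted lines mark 2-fold. Fasl lies beyond the upper line on both arrays, Tnfsf14 on array 1 alone and Tnfrsf1b on array 2 alone. Ltb lies beyond the lower line on array 2 alone, and most other genes lie near 0.

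Among the ligands, Fasl encodes Fas ligand, with which cytotoxic lymphocytes trigger death of cells that bear Fas. Its processed signal, which the scanner software had corrected for background and dye, was 2851 in CD8+CD122+ and 460.1 in CD8+CD122- cells on array 1, and 5161 and 492 on array 2. Both CD8+CD122+ signals lay above both CD8+CD122- signals. The normalised ratios were 1.43 and 2.37, a mean of 1.90 ± 0.66 (SD, n = 2 arrays) or 3.73-fold, with an adjusted p by limma of 0.593. This was rank 29 from the top of 22122 genes. In the processed signals, which carry no added constant, the ratios were 2.63 and 3.39, or 8.06-fold on the mean.

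A second Fasl probe lay 6.777 kb away by the file coordinates, towards the 5′ end of the gene, and was much nearer to background. Its processed signals on array 1 were 350.2 and 159, and on array 2 they were 472 and 183, and the CD8+CD122- spot on array 1 was not well above background. Its ratios were 0.22 and 0.44 (mean 0.33), positive on both arrays but under 1.5-fold, and 1.14 and 1.37 in the processed signals (2.39-fold). The probes thus had the same sign and sizes 1.57 apart on the log2 scale. With the mean of both probes, Fasl had a ratio of 1.11 and no longer reached 2-fold on array 1 (0.82).

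Tnfsf14 encodes LIGHT, a ligand of the receptors HVEM (Tnfrsf14) and lymphotoxin beta receptor (Ltbr). Its processed signals were 4161 in CD8+CD122+ and 1110.2 in CD8+CD122- cells on array 1, and 2724 and 1188 on array 2. Both CD8+CD122+ signals were the higher ones. The ratios were 1.33 and 0.86, with a mean of 1.10 ± 0.34 (2.14-fold; adjusted p by limma 0.589). Array 2 fell short of 2-fold in this processing and passed it in the processed signals (1.91 and 1.20, 2.93-fold). Tnfsf14 has a single probe on the array, so no other probe bears on it.

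**Figure D2:**
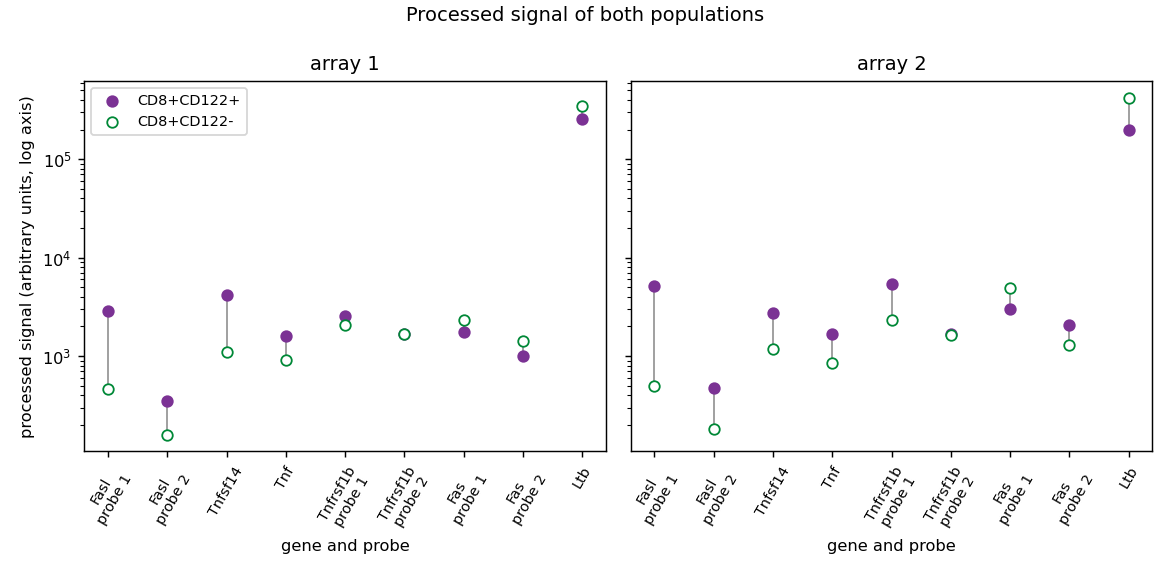
Processed signal (vertical axis, log scale, arbitrary units) of CD8+CD122+ (filled) and CD8+CD122- cells (open) on each array, for probes of Fasl, Tnfsf14, Tnf, Tnfrsf1b, Fas and Ltb; probe 1 is the brightest. The filled points of Fasl, Tnfsf14 and Tnf lie above the open ones on both arrays, those of Ltb lie below, and the second probes of Tnfrsf1b and Fas do not repeat the pattern of the first.

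Tnf, Ltb and Lta are neighbours on chromosome 17 with no protein-coding gene between them. They encode TNF, a soluble and membrane-bound inflammatory cytokine, and the lymphotoxin chains beta and alpha, which together form the ligand of lymphotoxin beta receptor. Tnf gave processed signals of 1614 and 908 on array 1 and 1662 and 859 on array 2, CD8+CD122+ first. These did not overlap, and the ratios of 0.48 and 0.62 were close to each other, with a mean of 0.55 ± 0.10 (1.46-fold; adjusted p by limma 0.576, the lowest of the family).

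Ltb went the other way. Its processed signals were 257669 in CD8+CD122+ and 343816 in CD8+CD122- cells on array 1, and 198887 and 420012 on array 2, and the spot was not saturated. Both CD8+CD122+ signals were below both CD8+CD122- signals, by ratios of -0.42 and -1.04 (mean -0.73 ± 0.44, 1.66-fold lower, adjusted p by limma 0.751). Array 2 alone reached 2-fold. With median centring in place of loess the array 1 ratio of Ltb was 0.27 and that of array 2 was -1.55, so the sign on array 1 depended on the normalisation. Lta had smaller negative ratios of -0.30 and -0.10 (mean -0.20 ± 0.14; adjusted p by limma 0.861).

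With the added constant, the other ligands stayed within 0.25 of 0 on each array. Without it, in the processed signals, array 1 gave 1.16 for Tnfsf4, 1.12 for Tnfsf10, 0.95 for Tnfsf18 and 0.60 for Tnfsf8, and array 2 gave 0.28, 0.14, -0.02 and -0.11. On array 1 the CD8+CD122- spots of Tnfsf4, Tnfsf10, Tnfsf18 and Cd40lg were not well above background. Tnfsf10, which encodes the death ligand TRAIL, had normalised ratios of 0.19 and 0.06. Tnfsf8, the ligand of CD30, had 0.23 and -0.08. Cd70, the ligand of CD27, had -0.12 and 0.16. Cd40lg, with which helper T cells activate B cells and dendritic cells, had 0.00 and -0.05. Tnfsf4 (OX40 ligand), Tnfsf11 (RANKL) and Tnfsf13b (BAFF) were positive on both arrays. Tnfsf9 (ligand of CD137) and Tnfsf15 (TL1A) were negative on both, and Tnfsf18 (ligand of GITR) had opposite signs. In the processed signals Tnfsf9 had -0.33 and -0.18, Tnfsf15 -0.30 and -0.10, and Cd70 -0.28 and 0.34. Cd40lg had 0.22 and -0.05 there, Tnfsf11 0.09 and 0.08, and Tnfsf13b 0.01 and 0.09. The CD8+CD122+ spot of Tnfsf9 on array 2 was not well above background. Over all 15 ligands, 7 were positive on both arrays, 4 negative and 4 opposite, and the median was 0.05.

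Neighbouring ligand genes differed in ratio in 3 chromosomal trios. In RefSeq's gene order 23 of the 42 family genes fall into 9 groups with at most 2 protein-coding genes between members. Fasl (mean 1.90) stands with Tnfsf18 (0.05) and Tnfsf4 (0.13). Tnfsf14 (1.10) stands with Cd70 (0.02) and Tnfsf9 (-0.06). Tnf (0.55) stands between Ltb (-0.73) and Lta (-0.20). With the added constant, 1 gene in each trio had a mean ratio over 0.5 and the others did not. In the processed signals, without it, Tnfsf4 also passed 0.5 with a mean of 0.72, and Tnfsf18 had 0.47. The CD8+CD122- spots of Tnfsf4 and Tnfsf18 on array 1 were not well above background.

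Of the 7 receptors listed as costimulatory, 1 was positive on both arrays, 4 negative and 2 opposite, with a median of -0.04. Tnfrsf1b encodes TNF receptor type II, the receptor for membrane-bound TNF on T cells. Its brightest probe gave processed signals of 2543 and 2076 on array 1 and 5450.3 and 2339.5 on array 2, CD8+CD122+ first. The populations did not overlap, but the ratios of 0.22 and 1.01 were far apart, with a mean of 0.61 ± 0.56 (1.53-fold; adjusted p by limma 0.861). Its other probe, 8.819 kb away towards the 5′ end, had ratios of -0.02 and 0.05.

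Cd27, the receptor of CD70 that marks naive and central memory T cells, had processed signals of 5638 and 5864 on array 1 and 2928 and 4766 on array 2. The ratios were -0.04 and -0.59 (mean -0.32 ± 0.38; adjusted p by limma 0.895), so the difference rested on array 2; with median centring they were 0.23 and -0.90. Tnfrsf14 encodes HVEM, the receptor of LIGHT, and was lower on both arrays at -0.21 and -0.44 (mean -0.33 ± 0.16; adjusted p by limma 0.753). Its processed signals on array 1 were 401 and 617, and on array 2 they were 355 and 675. In that processing the fold was 1.71. A second probe had normalised ratios of -0.17 and -0.04, and -0.49 and -0.17 in the processed signals. The ligand Tnfsf14 and its receptor Tnfrsf14 therefore had mean ratios of opposite sign.

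The activation-induced receptors were close to 0 after loess. Tnfrsf9 (CD137) had -0.05 and -0.03 on its brightest probe, and its 3 probes had means from -0.04 to 0.03. Tnfrsf4 (OX40) had -0.06 and 0.33, and Tnfrsf18 (GITR), its neighbour and a receptor also known from regulatory CD4 T cells, had -0.10 and -0.22. With median centring Tnfrsf18 had 0.27 and -0.63, Tnfrsf9 0.09 and -0.31, and Tnfrsf4 0.13 and -0.01. Tnfrsf8 (CD30) had 0.03 and -0.03. On each array the 4 genes were above background in both populations, with adjusted p-values by limma of 0.873 or more.

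Among the 5 receptors with a death domain, 1 was positive on both arrays, 1 negative and 3 opposite, with a median of -0.10. Fas, the receptor of Fas ligand, had processed signals of 1759 and 2339.5 on array 1 and 3005 and 4931 on array 2, CD8+CD122+ first. It was lower in CD8+CD122+ cells within each array, although the signals overlapped across arrays. The ratios were -0.30 and -0.63 (mean -0.46 ± 0.23, 1.38-fold lower, adjusted p by limma 0.720). A second Fas probe, 18.169 kb towards the 5′ end, gave -0.26 and 0.48, of opposite sign on array 2. It is named for Fas by the annotation of array 1 only, and that of array 2 points to no known gene.

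Tnfrsf1a, which encodes TNF receptor type I, had 0.02 on array 1 and -0.63 on array 2 (mean -0.31 ± 0.46; adjusted p by limma 0.906). Tnfrsf25 (DR3, the receptor of TL1A) had -0.32 and 0.13. Tnfrsf10b, the mouse receptor of TRAIL, had -0.004 and 0.06, and Tnfrsf21 (DR6) had 0.03 and 0.09. The arrays thus gave different signs for Tnfrsf1a, Tnfrsf25 and Tnfrsf10b, and different sizes as well for Tnfrsf1a.

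**Figure D3:**
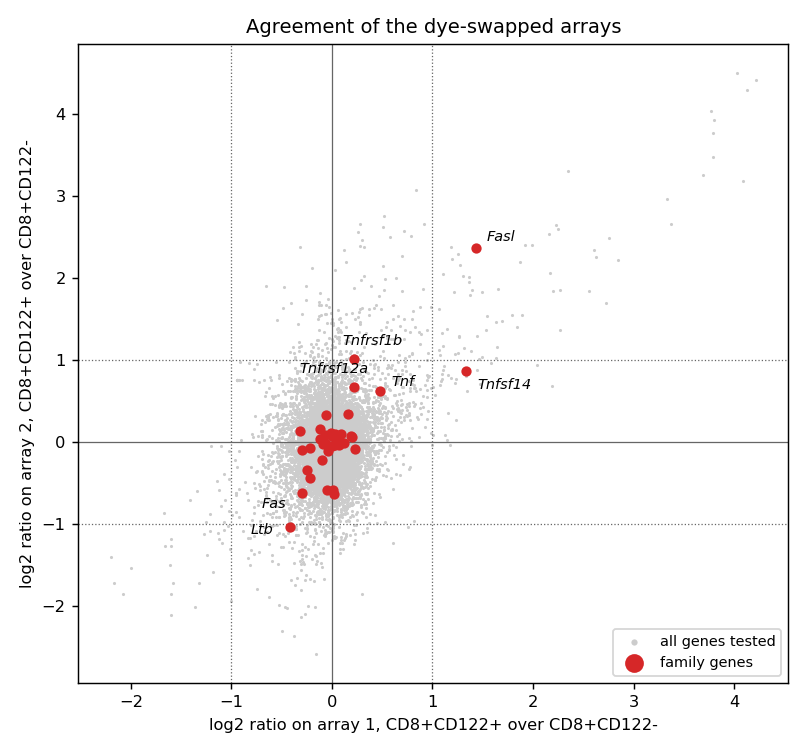
Log2 ratio on array 1 (horizontal) against array 2 (vertical) for all 22122 genes tested (grey) and the 39 family genes (red); dotted lines mark 2-fold. Fasl lies in the upper right corner beyond both lines, Tnfsf14 and Tnf to the upper right, Ltb and Fas to the lower left, and Tnfrsf1b high on array 2 alone.

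With the added constant, the 6 receptors known mainly from B, stromal or myeloid cells were near 0 except Tnfrsf13b. It encodes TACI, a receptor of BAFF and APRIL on B cells, and had ratios of -0.24 and -0.35 (mean -0.29 ± 0.07; adjusted p by limma 0.689). Its processed signals on array 1 were 673 and 943, and on array 2 they were 659.6 and 988, with CD8+CD122+ the lower on each. A second Tnfrsf13b probe, too dim to be kept, had 0.01 and 0.01, and -0.04 and -0.19 in the processed signals. Of 10 B cell marker genes, 2 were negative on both arrays, like the brightest Tnfrsf13b probe: Cd79b at -0.20 and -0.76 and Ly6d at -0.40 and -0.49. The median of the B cell markers was 0.04 and their means ran from -0.48 to 0.17. Their summed spot signals, with background and not normalised for dye, were 1540.0 in CD8+CD122+ and 1534 in CD8+CD122- cells on array 1, and 1642 and 2077 on array 2. Their part in the Tnfrsf13b ratio was not tested.

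Cd40, the receptor of Cd40lg on antigen-presenting cells, had -0.04 and -0.06. The BAFF receptor Tnfrsf13c had -0.01 and 0.11, and Tnfrsf17 (BCMA) had -0.04 and -0.11. Tnfrsf11a (RANK) had 0.06 and 0.02, and Ltbr had -0.12 and 0.04. In the processed signals Ltbr had -0.60 and 0.19, Tnfrsf17 -0.002 and -0.43, and Cd40 -0.16 and -0.32. Tnfrsf13c had -0.02 and 0.27 there, and Tnfrsf11a 0.05 and 0.08. The CD8+CD122- spots of Ltbr and Tnfrsf17 on array 1 were not well above background. Nor was the CD8+CD122+ spot of Cd40 on array 2. In bulk samples such as these, fewer cells of a type and less RNA per cell cannot be told apart.

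Of the other 6 receptors, 2 were positive on both arrays, 0 negative and 4 opposite. Tnfrsf12a, the receptor Fn14 of the ligand TWEAK, had 0.22 and 0.67 (mean 0.44 ± 0.32; adjusted p by limma 0.813), with processed signals of 1317 and 1011 on array 1 and 2450.4 and 1283 on array 2. Tnfrsf26 had 0.16 and 0.33, and its neighbours Tnfrsf22 and Tnfrsf23, decoy receptors of TRAIL, had mean ratios of 0.01 and 0.02. Relt had 0.01 and -0.58, and Tnfrsf11b, the soluble RANKL receptor osteoprotegerin, had 0.07 and -0.04. Across the 24 receptors 5 were positive on both arrays, 8 negative and 11 opposite, and the median was -0.02.

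The genes Tnfsf12 (TWEAK), Tnfsf13 (APRIL) and Tnfrsf19 had no probe that was well above background in the same population on both arrays, and they were not tested. Of the 39 tested genes 31 cleared that mark in both populations and on each array. Where a gene had several probes bright enough to be kept (9 genes), the probe means were within 0.25 of each other for 6 and further apart for Fasl, Tnfrsf1b (0.60) and Fas (0.57). The second Fas probe is named for Fas by the annotation of array 1 only. For Fasl, Tnfrsf1b and Fas the brightest probe lay nearer the 3′ end. The same held for Tnfrsf14, Tnfrsf21 and Tnfrsf25, whose probe means were within 0.25. It did not hold for Tnfrsf10b and Tnfsf11, or against every other probe of Tnfrsf9.

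The name rule also found 4 probes outside these counts. Both probes of Psmg2, which the array calls Tnfsf5ip1, match the rule by an old name, but Psmg2 encodes a proteasome assembly chaperone. Its brightest probe had 0.15 and -0.62. A further probe is named for Cd27 in one file and for another gene in the other, lies 4310.661 kb from the Cd27 probe by the file coordinates, and had -0.53 and 0.21. The last is named for Tnfrsf9 in one file only, lies 446 bases from a Tnfrsf9 probe, was dim, and had 0.05 and -0.20.

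Genes that carry the receptors' signal were taken as a list of TRAF adaptors, death-domain adaptors, kinases, caspases, ubiquitin enzymes and the sheddase Adam17 with its regulator Rhbdf2. Of 42 listed genes 39 were tested, and 0 were 1.5-fold apart in the same direction on both arrays. The signs were positive on both arrays for 7 (17.9%, against 29.1% of all genes), negative for 12 (30.8%, against 24.1%) and opposite for 20. Its median ratio was -0.05 (-0.02 and -0.08 on the single arrays). limma called 0 of them, and 7 (17.9%) had an unadjusted p under 0.05, against 6.36% of all genes. By brightest probe, the genes with the highest and the lowest mean, singled out after their values were seen, were Tnfaip3 and Tank. Tnfaip3, which encodes the NF-kappa-B inhibitor A20, had -0.04 and 1.74, so its mean of 0.85 rested on array 2. Tank, a TRAF-binding adaptor, had -0.65 and -0.57, and its other probe had -0.08 and -0.16.

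Fasl and Tnf are also known from NK cells, and markers of other cells were measured beside them. Of 7 NK cell markers 5 were tested, 3 of them positive on both arrays and 0 negative, with a median ratio of 0.05, and Ncr1 and Klri2 were not well above background in either population on either array. Klre1 had the highest ratios of these, 1.09 and 0.74 (mean 0.91). It was well above background in CD8+CD122+ cells on each array and in CD8+CD122- cells on neither, so its size is uncertain. The means of the other tested NK markers ran from 0.03 to 0.10, Fcer1g and Tyrobp having 0.05 each. Summed over the NK markers, spot signals with background, and not normalised for dye, were 1237 in CD8+CD122+ and 1072 in CD8+CD122- cells on array 1, and 1204 and 1365 on array 2. Of 10 myeloid and dendritic markers 8 were tested, 6 of them positive on both arrays and 1 negative, with means from -0.05 to 0.55 (Lyz2). Their sums, in the same order, were 2011 and 1742 for array 1, then 2165 and 2672 for array 2. In these sums CD8+CD122+ was the higher on array 1 and the lower on array 2, where the dyes were exchanged, so they give no direction. The tested CD4 T cell markers Cd4, Foxp3 and Ctla4 had mean ratios of -0.02, 0.03 and 0.13, each with opposite signs on the arrays. Their part in the ratios of the ligands was not tested.

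The CD8 T cell markers were bright in both populations, which follows the labels. All 6 measured ones had negative means, and 4 were negative on both arrays, with a median of -0.31. Cd8b1 had -0.48 and -0.86, and Cd3d had -0.003 and -0.26. Their summed spot signals, with background and not normalised for dye, were 45489 in CD8+CD122+ and 33960 in CD8+CD122- cells on array 1. On array 2 they were 29520 and 80182. Before loess CD8+CD122+ was thus the higher on array 1, and ratios of these markers with median centring were not computed. The negative ratios of Ltb, Fas and Cd27 (means -0.73, -0.46 and -0.32) lay in the range of these markers, -0.67 to -0.01, or beyond it for Ltb; whether they share a source was not tested.

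**Figure D4:**
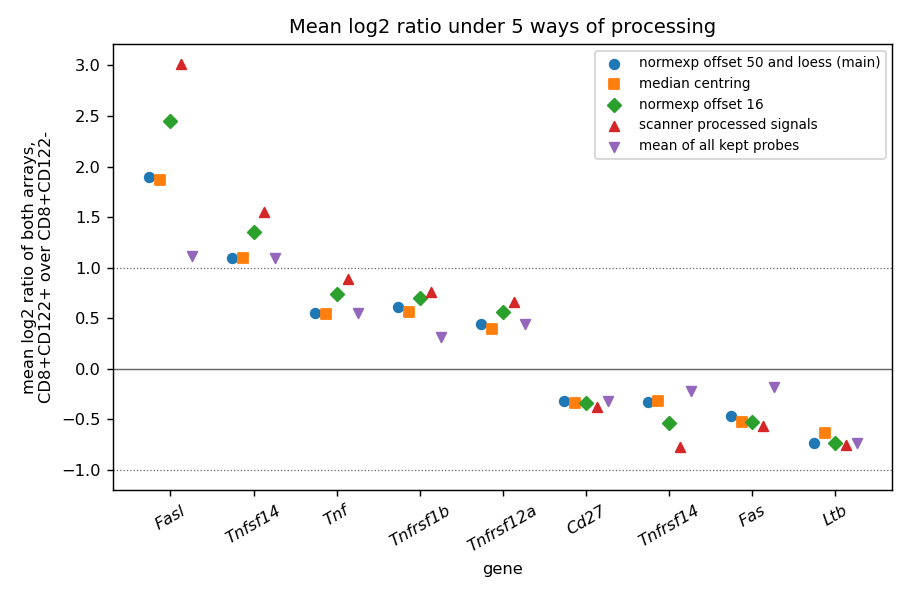
Mean log2 ratio of both arrays (vertical axis) for 9 family genes under 5 ways of processing the same spots; dotted lines mark 2-fold. Fasl runs from 1.11 with the mean of its probes to 3.01 with the scanner's processed signals, and the mean of each gene keeps its sign.

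The mean ratios of the main ligands moved in size between settings and kept their sign. Over 7 other settings Fasl ran from 1.11 to 3.01, Tnfsf14 from 1.09 to 1.55, Tnf from 0.54 to 0.89 and Ltb from -0.75 to -0.64. The value table repeated the processed signals for these 4 genes, so those 2 settings were not independent. The 2 filters on dim probes could not change the 4 values. They acted after normalisation, and the brightest probe of each gene passed them. With the processed signals or with an added constant of 16 in place of 50, Tnfsf14 joined Fasl above 2-fold on both arrays. With the processed signals 141 genes in all were 2-fold higher, and with the constant of 16 there were 94, against 66 with normexp and the constant of 50.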

How the data were processed

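Messenger RNA of both populations was measured on 2 arrays, 1 group of replicate 1 (array 1) and replicate 2 (array 2). Per the file headers, Agilent Feature Extraction made the scanner files (version A.7.5.1 for array 1, 8.1.1.1 for array 2), and the submitters' processing notes name the same software. The deposited files give the intensity of each spot and of its local background (linear scale), processed signals, and 0 or 1 flags for background, saturation and outliers. Per the file headers the scanner's ratio is the log10 of Cy5 over Cy3. A value table deposited with the series holds log10 ratios equal to the scanner's with the sign turned on array 1 only, so both of its columns are CD8+CD122- over CD8+CD122+, each with a median of 0. A genome build for the arrays was not given in the sources used here, so no coordinates of the array files are printed.

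Each array has 43790 spots, 2256 of them controls. Probes were named through a RefSeq table of GRCm38.p6 by accession (22039), symbol (5679) or unambiguous synonym (4319), and 9137 kept the file's name. For 335 probes the files name different genes, and these stood apart. In limma 3.58.1 (R 4.3.3), normexp with an offset of 50 corrected mean spot intensity for the local background median, and loess normalised each array, with controls weighted 0. Outlier spots were left out, saturated spots kept, and spots of a probe averaged. A probe was kept if the same population was well above background on both arrays (30794 probes), and the brightest probe stood for a gene. Ratios were turned to CD8+CD122+ over CD8+CD122-. The test was limma's (lmFit and eBayes, two-sided, 1 residual degree of freedom) with Benjamini-Hochberg adjustment over all 22122 genes. No dye term was fitted, since 0 residual degrees of freedom would remain; what the dye does alike on each array drops out of the mean. The rule of size, 2-fold or 1.5-fold on each array with the same sign, carries no p-value. The steps were tested on simulated data.

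The members, gene lists and the rule for named genes were chosen with earlier results of these data known. By that rule any family gene could be named, array values were given for the main ligands and receptors whether apart or not, and of other genes only Il2rb, the cell type markers and signalling genes 1.5-fold apart. Tnfaip3 and Tank, outside it, were named after their values were seen. Alternatives were median centring, the scanner's processed signals, an offset of 16, no filter or a stricter filter on dim probes, the mean of all probes of a gene, the value table, other limma settings, a lower size threshold and each array alone.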

Additional observations from a re-analysis of the deposited data

How the results depend on the processing

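The count of family genes 2-fold higher on both arrays was 1. It was 2 (Fasl and Tnfsf14) with the processed signals, with an offset of 16, with the value table and at 1.5-fold. It was 0 with the mean of all probes of a gene, where Fasl had 0.82 on array 1. Of all 22122 genes, 66 were 2-fold higher in the main setting and 55 with the mean of all probes. That number was 141 with the processed signals, 94 with the offset of 16, 144 with the value table and 160 at 1.5-fold. On single arrays, which carry no test, the count was 2 and 2, the count 2-fold lower ran from 0 to 1 (Ltb on array 2), the counts of positive and of negative genes both ran from 19 to 20, and the count of signalling genes 2-fold apart ran from 0 to 3. Negative genes on both arrays numbered 12, and 7 with median centring; the cause was not tested. With median centring 7 of the 20 named genes, Ltb, Cd27, Cd40, Cd40lg, Tnfrsf4, Tnfrsf9 and Tnfrsf18, had another sign on at least 1 array. limma called 0 family genes in each setting, with a lowest adjusted p from 0.277 to 0.629 and 4 to 8 genes at an unadjusted p under 0.05. It called 0 of all genes in each setting too. For the counts on single arrays, with median centring and at an unadjusted p, the share of all genes was not computed by setting. Of 20 named genes, 1 (Cd40lg, close to 0) changed sign of its mean in some settings. Each ratio already pairs the populations on 1 array, and with 1 group of ratios no further pairing was possible. The number of arrays limits the precision, and dim spots, 8 of the 39 genes not well above background everywhere, limit the folds. Rules for a closer look at single results were not applied, since a group of 2 arrays is too small for an outlier test.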
